A study of Mus musculus with 15 samples.

Results

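The genes described here are the 100 protein-coding genes whose RNA rose late in 4-factor primordial germ cell-like cell (PGCLC) induction and stood highest at day 6, out of 22028 protein-coding genes and 55536 genes in the count table. They were picked by a score. Each count was divided by its library's total and multiplied by 1000000 (CPM), 1 was added to the mean CPM of each group, and the score was the log2 value in day 6 cells minus the highest log2 value among the 4 other groups. The 100 highest scores were kept, so the excess at day 6 and the ranking are a description and carry no test. All 100 genes passed the filter on low counts that left 18090 genes for testing. That filter used all 15 libraries, and without the day 6 libraries 98 of the 100 passed it.

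RNA-seq was compared in 5 groups of 3 libraries from mouse embryonic stem cells (ESCs). The cells carry a Stella-eGFP reporter, which lights up cells that switch on Dppa3 (Stella), together with rtTA and doxycycline-inducible Prdm1, Prdm14, Tfap2c and Nanog transgenes, and all groups share these transgenes. Lines of this kind were isolated as clones, and the sources do not say whether all 15 libraries came from the same clone. ESCs were kept in 2i with LIF (1 µM PD0325901 and 3 µM CHIR99021). Epiblast-like cells (EpiLCs) were taken at 48 h, after Activin A and bFGF. D2PGCLCs, D4PGCLCs and D6PGCLCs were Stella-eGFP+ cells sorted on days 2, 4 and 6 of induction with 2 µg/ml doxycycline and no added cytokines. Reads of the transgenes cannot be told apart from those of the endogenous genes, and none of the 4 factors is among the 100 genes. No source says whether replicates were separate cultures, so p-values measure the spread between these libraries, which may be technical.

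Primordial germ cells (PGCs) are the embryonic founders of sperm and eggs. After specification they erase much of their DNA methylation, and around their arrival in the gonad they start to express RNA-binding proteins, piRNA pathway proteins and other germline genes that are kept silent in somatic cells. Stra8 and synaptonemal complex genes come on as germ cells prepare for meiosis, the division that makes haploid gametes, and retinoic acid is the known inducer of Stra8 in the gonad.

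Libraries held 22555021 to 42725681 counts. D6PGCLC replicate 1 stood apart at low counts: 1382 genes had 1 to 9 counts in it, against 5942 to 7510 in the other 14 libraries, and 18061 genes had any count, against 21103 to 24343. Some markers followed the labels: Klf4, a naive marker, stood at 171 to 179 CPM in ESCs and at most 25.1 CPM elsewhere. The EpiLC marker Fgf5 stood at 50.6 to 60.6 CPM in EpiLCs and at most 1.17 CPM elsewhere. Naive markers Esrrb and Zfp42 stayed high in PGCLCs: Esrrb averaged 592 CPM in ESCs, 62.6 CPM in EpiLCs and 444 CPM at day 6. Zfp42 averaged 504, 116 and 287 CPM there. The PGC marker Itgb3 averaged 8.13, 3.36 and 144 CPM in the same groups, but the factor Prdm1 10.9, 67.0 and 64.6 CPM. Dppa3 stood at 417 to 566 CPM in the 9 PGCLC libraries and at 50.6 to 94.6 CPM in ESCs and EpiLCs. The sort on Stella-eGFP favours this difference, so it is no check of the labels. The 100 genes had at least 59 counts each in D6PGCLC replicate 1 and at least 27 in every D6PGCLC library. Scores and ratios of leading members, and the calls between days 4 and 6, are also given without D6PGCLC replicate 1, and a value of 0 in that library is not read as absence.

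Stra8, the gatekeeper of meiotic entry, headed the ranking. Its level was 1.49, 1.02 and 1.01 CPM in the ESC libraries, 6.18, 5.03 and 6.49 CPM in EpiLCs, 5.47, 11.5 and 11.8 CPM at day 2, 25.2, 24.3 and 34.8 CPM at day 4 and 168, 138 and 210 CPM at day 6. The 3 day 6 libraries stood above all 12 others, and the mean of 172 ± 36.4 CPM (SD, n = 3) was 6.13 times the D4PGCLC mean, or 6.20 times without D6PGCLC replicate 1. The gene (ENSMUSG00000029848) spans chr6:34920163-34939344 on the plus strand of mm10. Dazl (ENSMUSG00000010592, chr17:50279395-50293636, minus strand) encodes an RNA-binding protein that germ cells need once they reach the gonad, and it had the highest level of the 100 genes. Its CPM was 11.0, 12.9 and 9.43 in ESCs, 5.89, 5.89 and 6.11 in EpiLCs, 42.9, 27.2 and 43.3 at day 2, 217, 136 and 215 at day 4 and 507, 383 and 504 at day 6. The means of both genes rose at each sampled day from 2 to 6, and the ratio of the day 6 to the day 4 mean was 2.46 for Dazl (2.34 without D6PGCLC replicate 1). Per kilobase of exon, Dazl stood at 122 and Stra8 at 95.6 CPM at day 6, and the next gene, Got1l1, at 26.5 CPM per kilobase. Dazl and Stra8 were the only 2 members with a day 6 mean of at least 100 CPM. Of 4 genes known to respond to retinoic acid and outside the 100, chosen after the values were seen, Rarb averaged 0.444 CPM at day 4 and stood at 0.749 and 0.584 CPM in D6PGCLC replicates 2 and 3. The means at days 4 and 6 were 0.632 and 0.908 CPM for Cyp26a1, 1.28 and 2.85 CPM for Crabp2 and 20.97 and 34.1 CPM for Rec8, a meiotic cohesin. In EpiLCs and at day 2 the means were 0.455 and 0.386 CPM for Rarb and 0.862 and 1.13 CPM for Cyp26a1. For Crabp2 they were 21.9 and 0.983 CPM, and for Rec8 8.45 and 20.3 CPM.

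The regions upstream of 4 germline members are shown because these genes rose together, and because motifs of factors known from germline gene control could be looked up in them. The window of each gene was the 250 bases before its RefSeq transcription start on GRCm38.p6: chr6:34920698-34920947 (plus) for Stra8, chr17:50293621-50293870 (minus) for Dazl, chr6:145615713-145615962 (plus) for Tuba3b and chr6:18109062-18109311 (minus) for Asz1. The GENCODE M21 annotation places transcription starts further upstream for some of these genes, so that 250 bases of the Stra8 window, 206 of the Tuba3b window and 16 of the Dazl window lie in sequence annotated there as untranslated exon, and 0 of the Asz1 window. The Stra8 and Tuba3b windows thus lie before the start mainly by RefSeq. Of Dazl, Tuba3b and Asz1 the bases before the annotated exon are printed (chr17:50293637-50293870, chr6:145615713-145615756 and the whole Asz1 window), and of the matches inside annotated exons 26 bases each: chr6:34920744-34920769 and chr6:34920900-34920925 for Stra8 and chr6:145615847-145615872 for Tuba3b. All run 5′ to 3′ on the gene's strand, with motif matches in capitals.
Stra8, first match: tggggtgaaaAGGTCAtcttgctcct
Stra8, second match: ctggggtaccAGGTCAgttttttacc
Dazl: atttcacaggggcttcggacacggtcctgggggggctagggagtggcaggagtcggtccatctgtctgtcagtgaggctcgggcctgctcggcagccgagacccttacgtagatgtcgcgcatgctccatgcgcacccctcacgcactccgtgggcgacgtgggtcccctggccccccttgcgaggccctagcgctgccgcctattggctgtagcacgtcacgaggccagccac
Tuba3b: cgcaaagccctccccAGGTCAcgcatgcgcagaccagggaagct
Tuba3b, exon match: tccagagcctTCCCGCcaaatttaca
Asz1: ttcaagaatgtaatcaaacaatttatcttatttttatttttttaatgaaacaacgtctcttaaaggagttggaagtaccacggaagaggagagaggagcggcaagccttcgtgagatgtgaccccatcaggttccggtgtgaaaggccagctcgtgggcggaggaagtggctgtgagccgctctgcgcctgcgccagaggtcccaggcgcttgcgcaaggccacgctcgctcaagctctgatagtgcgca
Matches to 3 motifs were searched on both strands: AGGTCA, the half-site of retinoic acid receptors, GCGGGA, the core of E2F sites, and CACGTG, the E-box of MAX and MGA. The motifs do not overlap one another in these windows. The Stra8 window held AGGTCA at 2 places, and the Tuba3b window held it once along with 1 GCGGGA on the opposite strand. The Dazl and Asz1 windows held none of the 3 motifs, and none of the 4 windows held CACGTG. Among 20150 such windows of protein-coding genes, 12.6% held AGGTCA, 22.4% GCGGGA and 6.78% CACGTG, so a single match is common and describes letters only. CpG dinucleotides numbered 5 in the Stra8 window, 20 in that of Dazl, 14 in that of Tuba3b and 15 in that of Asz1.

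Across the 100 genes the score ran from 0.96 to 2.57 with a median of 1.15, and the D6PGCLC mean was 2.03 to 16.7 times the highest other group's mean, with a median of 2.78. The highest other group was D4PGCLC for 75 genes, EpiLC for 13, ESC for 10 and D2PGCLC for 2. The lowest group was ESC for 44 genes, D2PGCLC for 32, EpiLC for 23 and D4PGCLC for 1. The median of the members' mean levels was 0.811 CPM in ESCs, 1.23 in EpiLCs, 1.01 at day 2, 2.53 at day 4 and 7.57 at day 6. Most of these RNAs were scarce even at day 6: 63 had a day 6 mean under 10 CPM and 18 a mean under 3 CPM. Their summed level was 241 to 251 CPM in ESCs, 238 to 249 in EpiLCs, 266 to 287 at day 2, 576 to 727 at day 4 and 1569 to 1999 at day 6. All 3 day 6 libraries lay above all 12 others for 96 of the 100, and for 7.82% of the 18090 tested genes. The choice of the genes favours this count, so nothing is read from it. The exceptions were Sycp2, Gm773, Megf11 and Rhox2c. Without D6PGCLC replicate 1 the count was 96 of 100, against 9.80% of tested genes. In a bulk sample a larger share of expressing cells and more RNA per cell cannot be told apart.

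**Figure D1:**
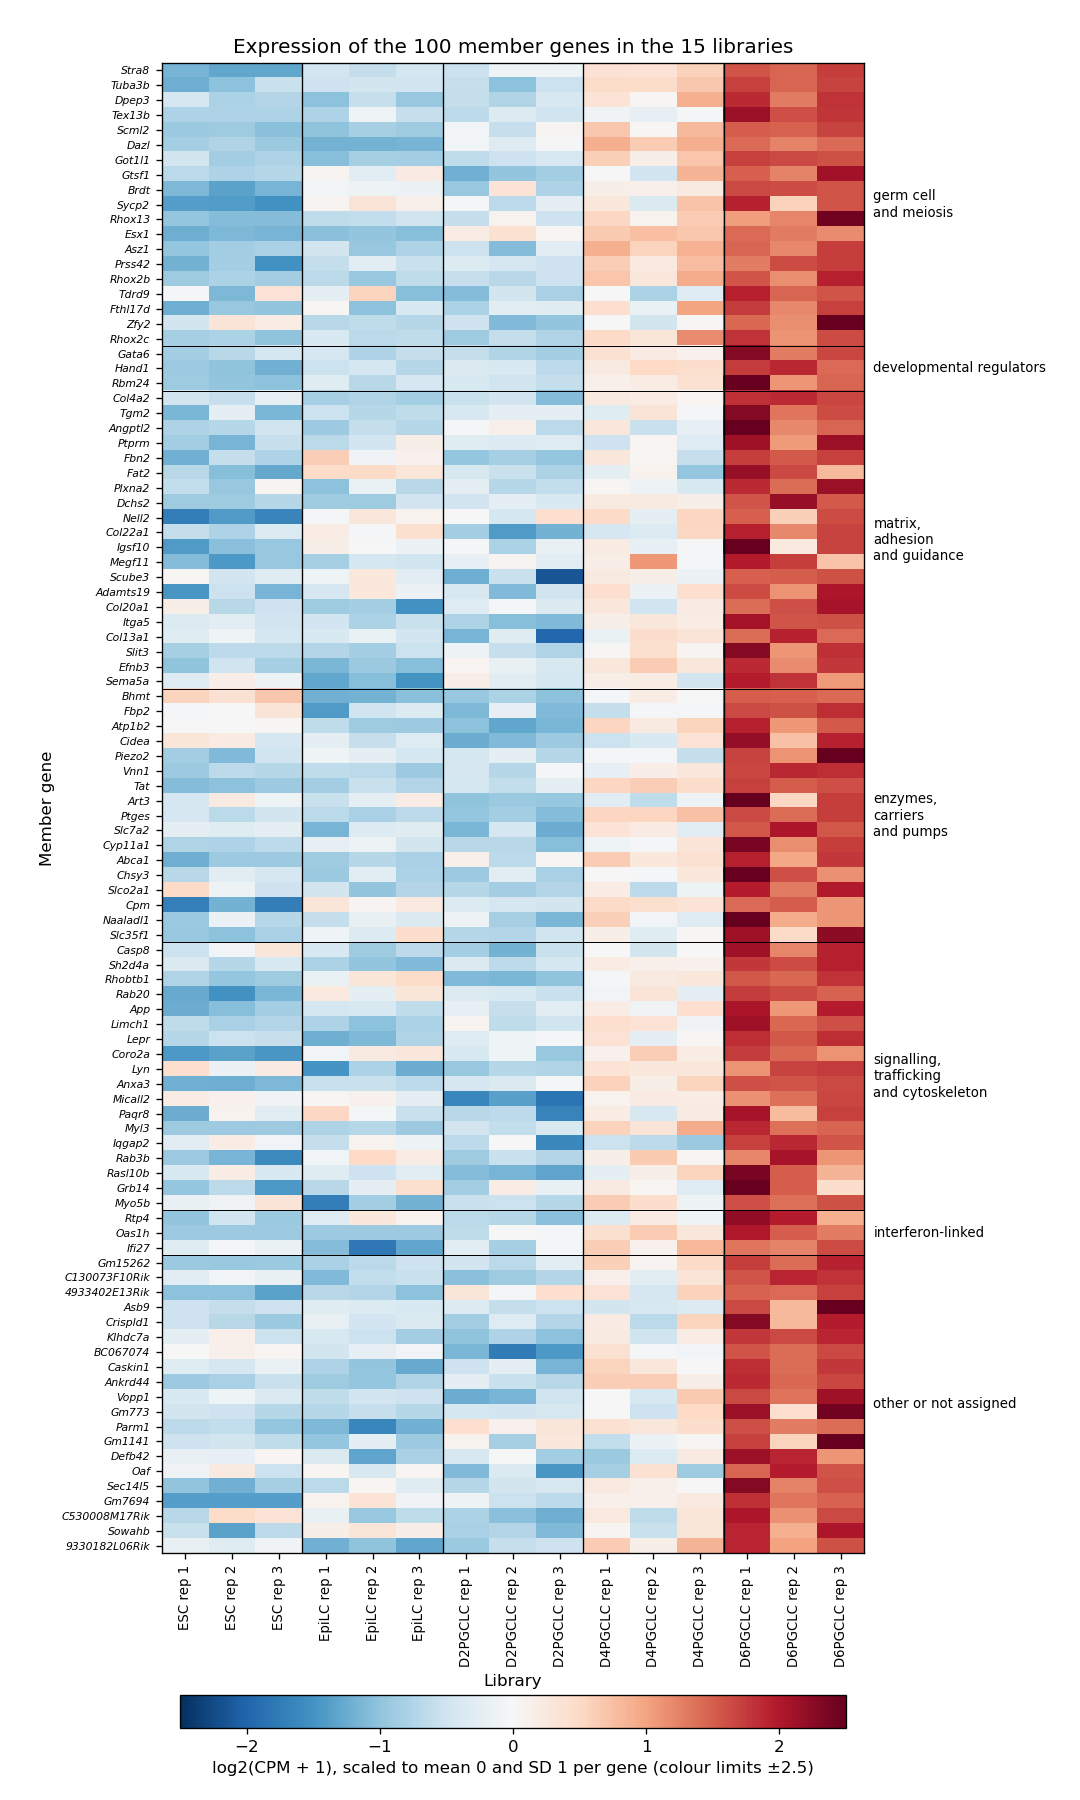
Heatmap of the 100 genes (rows, grouped by role and ordered by rank within a role) in the 15 libraries (columns). Colour is log2(CPM + 1) scaled to mean 0 and SD 1 per gene, red for high and blue for low. The day 6 columns are mostly red, most D4PGCLC columns are pale, and D6PGCLC replicate 2 is the palest day 6 library for 68 of the 100 genes.

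The day 6 libraries did not carry these RNAs to the same extent. D6PGCLC replicate 2 was the lowest of the 3 for 68 of the 100 genes, whereas it was the lowest for 33.0% of the 14775 tested protein-coding genes. Replicate 1 was the lowest for 10 and replicate 3 for 22. At day 4, replicate 2 was likewise the lowest library for 50 of the 100 genes (34.6% of tested protein-coding genes). Replicate 2 was also the highest or the lowest of the 3 libraries on each PGCLC day in several gene lists. The summed level of hypoxia and glycolysis genes in replicate 2 was 7756, 7557 and 6448 CPM on days 2, 4 and 6, against 3466 to 4678 CPM in replicates 1 and 3. The summed level of ATF4 and unfolded protein response genes in replicate 2 was 2877, 3444 and 2178 CPM, the lowest of the 3 libraries on each day. Replicate 2 was likewise lowest on each day for meiosis genes and for p53 targets and DNA damage genes (1136, 1423 and 1762 CPM). It was highest on each day for cholesterol synthesis genes (2111, 2013 and 1588 CPM), formative epiblast genes and 2-cell stage genes. The part of these differences in the spread of the members was not tested.

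Germ cell and meiosis genes made up 19 of the 100 genes when each was assigned a role, an assignment made with the values known. They included genes of the synaptonemal complex, the piRNA pathway and X-linked germline families, and their day 6 means ran from 2.01 to 465 CPM. Asz1 encodes a scaffold of the germ granule where piRNAs are made. Its level was 0.692, 0.887 and 1.01 CPM in ESCs, 1.87, 0.706 and 1.06 in EpiLCs, 1.67, 0.484 and 2.56 at day 2, 11.1, 7.38 and 10.6 at day 4 and 21.0, 15.7 and 28.2 at day 6. Asz1 was low in all 9 libraries before day 4 and at its highest in all 3 at day 6. Gtsf1, a cofactor of PIWI proteins in transposon silencing, stood at 2.22, 2.04 and 2.15 CPM in ESCs, 4.06, 3.10 and 4.5 in EpiLCs, 1.38, 1.70 and 1.90 at day 2, 3.89, 2.64 and 7.07 at day 4 and 10.8, 9.20 and 16.1 at day 6. It therefore dipped at day 2 before it climbed. Tdrd9, a helicase of the same pathway, had 2.35, 1.78 and 1.91 CPM at day 6 and at most 0.982 CPM in any earlier library.

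Sycp2, an axial element protein of meiotic chromosomes, was at 0.109, 0.0887 and 0 CPM in ESCs, 2.01, 2.55 and 2.13 in EpiLCs, 1.79, 0.830 and 1.41 at day 2, 2.46, 1.23 and 3.68 at day 4 and 9.80, 3.25 and 7.44 at day 6. One D4PGCLC library (3.68 CPM) lay above D6PGCLC replicate 2 (3.25 CPM), so days 4 and 6 overlapped for this gene. Brdt, a testis bromodomain protein, was steadier, with 2.02, 1.98 and 2.16 CPM at day 4 and 6.18, 6.11 and 5.87 CPM at day 6. Tuba3b, an alpha-tubulin of the testis, went from 10.3, 10.2 and 13.1 CPM at day 4 to 40.0, 30.5 and 39.0 CPM at day 6. Its near-identical paralogue Tuba3a, not a member, went from a mean of 119 to 175 CPM, and how reads were divided between the pair is not known. Rhox13, an X-linked homeobox gene, owed much of the size of its score to 1 library. It had 2.90 and 3.32 CPM in D6PGCLC replicates 1 and 2 and 8.30 CPM in replicate 3, against at most 1.99 CPM in any earlier library. Without replicate 3 its score fell from 1.15 to 0.65.

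**Figure D2:**
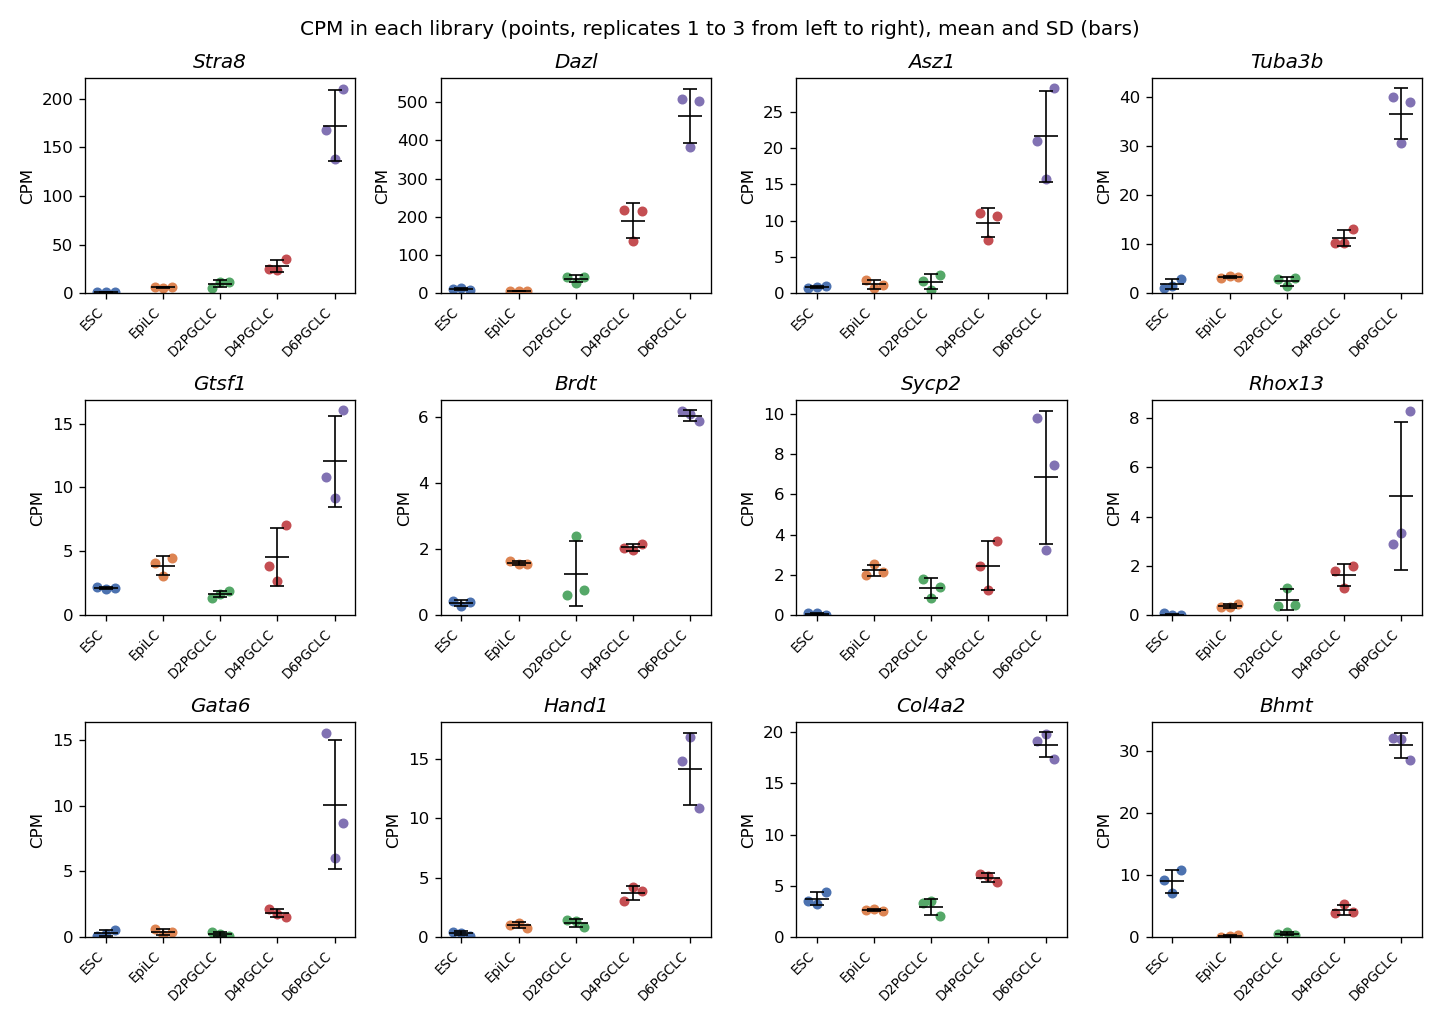
CPM of 12 members in each library (points; y axes start at 0 and differ between panels), with the group mean and SD as bars (n = 3). Stra8, Dazl, Asz1 and Tuba3b stood above their earlier levels at day 4 and higher again at day 6 (168, 138 and 210 CPM for Stra8). The Sycp2 and Rhox13 panels show the wide day 6 spread.

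Values of further germline members follow, and their excess of day 6 over day 4 is set by the rule. Scml2, a Polycomb protein of the germline, stood at 19.5, 10.6 and 22.2 CPM at day 4 and 42.4, 41.2 and 50.1 CPM at day 6. Got1l1, an aminotransferase-like gene of the testis, stood at 21.4, 15.0 and 22.9 CPM and then at 50.6, 48.4 and 45.7 CPM. Esx1, an X-linked homeobox gene of placenta and testis, was already at 11.3, 14.9 and 9.39 CPM at day 2, then at 21.5, 24.7 and 22.2 CPM and finally at 59.1, 51.3 and 43.7 CPM. For each of these genes the day 4 and day 6 libraries did not overlap, which the choice of the genes favours. Rhox2b and Rhox2c are neighbouring, closely related genes whose reads the counting may have split, and their day 6 means were 7.20 ± 2.45 and 6.68 ± 1.99 CPM. Fthl17d, Tex13b, Dpep3, Prss42 and Zfy2 completed the group, among them a ferritin-like gene, a dipeptidase, a serine protease and a Y-linked zinc finger gene, with day 6 means of 5.60, 2.80, 11.0, 17.1 and 2.14 CPM.

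The change from day 2 to day 4 is a contrast without day 6. The rule capped both groups below day 6 and did not use the difference between them. At an adjusted p below 0.05 and more than a 2-fold change, 40 of the 100 genes rose and 0 fell, where 2.56% of all tested genes rose and 0.376% fell. The members' median log2 fold change was 1.02, against 0.02 over all tested genes, and 97 of the 100 were above 0. No member was lower at an unadjusted p below 0.05 in edgeR, and DESeq2 called 39 higher and 0 lower. With the day 6 libraries left out of the filter and the fit, 36 of 98 members rose and 0 fell. By role, 10 of 19 germ cell and meiosis genes rose, 3 of 3 developmental regulators, 8 of 17 enzymes, carriers and pumps, 7 of 18 signalling, trafficking and cytoskeleton genes, 1 of 3 interferon-linked genes, 8 of 20 others and 3 of 20 matrix, adhesion and guidance genes. Of the 40 calls, 25 held in each of the 15 fits that left out 1 library.

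**Figure D3:**
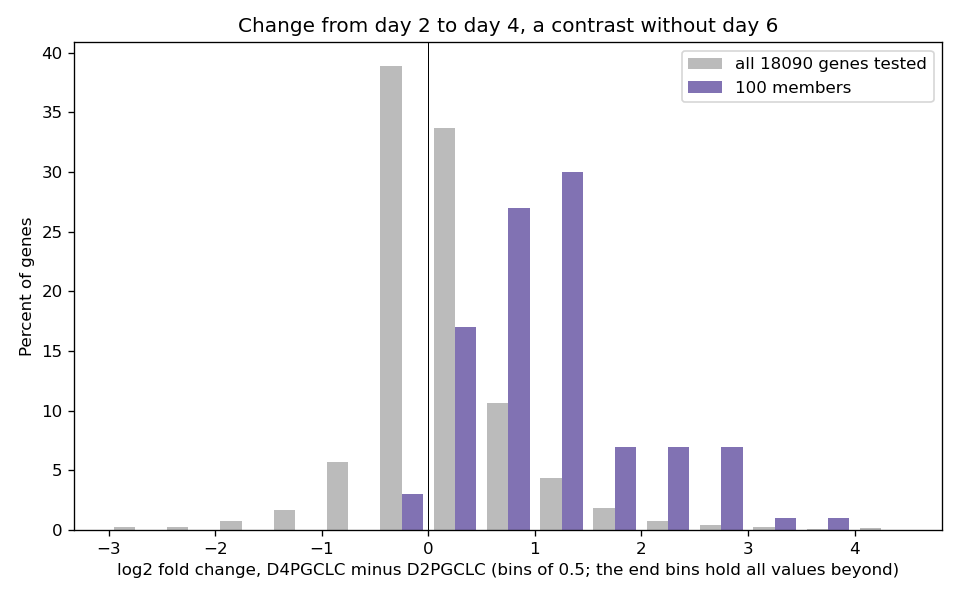
Share of genes (y axis, percent) by log2 fold change from D2PGCLC to D4PGCLC (x axis, bins of 0.5), for the 100 genes (purple) and all 18090 tested genes (grey). The members lie to the right, with a median of 1.02 against 0.02.

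The largest rises from day 2 to day 4 were those of Art3, Rhox2c, Gata6, Bhmt and Cidea. Art3, a member of the ADP-ribosyltransferase family, rose by 3.74 ± 0.93 (log2, SE; adjusted p = 0.0136) from 0, 0.0346 and 0.0287 CPM to 0.373, 0.180 and 0.467 CPM, which are 2 and 34 counts in all, a ratio of 16.6 with an exact 95% binomial interval of 4.25 to 142 that covers counting error only. Without D2PGCLC replicate 1 its adjusted p was 0.0653. Rhox2c rose by 3.42 ± 0.49 (adjusted p = 0.00029). Gata6 rose by 2.86 ± 0.52 (adjusted p = 0.00165) and Bhmt by 2.85 ± 0.28 (adjusted p = 7.47e-06). Cidea, a lipid droplet protein, rose by 2.69 ± 0.64 (adjusted p = 0.0101), with an adjusted p of 0.0569 without D2PGCLC replicate 1 and 0.0638 without D4PGCLC replicate 3. Among the germline members, Asz1 rose by 2.52 ± 0.38 (adjusted p = 0.000374), Dazl by 2.25 ± 0.17 (adjusted p = 9.17e-07), Tuba3b by 2.11 ± 0.28 (adjusted p = 0.000136) and Stra8 by 1.48 ± 0.22 (adjusted p = 0.000372). Gtsf1 rose by 1.38 ± 0.31 (adjusted p = 0.00686), but without D4PGCLC replicate 3 the change was 0.91 with an adjusted p of 0.057. Got1l1 rose by 1.11 ± 0.16, and by 0.995 without D4PGCLC replicate 3, just under the 2-fold limit. Brdt (0.66 ± 0.37, adjusted p = 0.278), Sycp2 (0.79 ± 0.43, adjusted p = 0.263), Rhox13 (1.30 ± 0.50, adjusted p = 0.101) and Tdrd9 (0.97 ± 0.85, adjusted p = 0.526) did not pass the test between days 2 and 4. Casp8 (1.29 ± 0.46, adjusted p = 0.0761) missed it in edgeR and passed it in DESeq2 (adjusted p = 0.0396).

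Between EpiLCs and D2PGCLCs 12 members rose and 18 fell, shares near those of all tested genes (11.0% and 14.4%), so these counts are no result about the members. Dazl rose by 2.62 ± 0.20 (adjusted p = 2.21e-09) and Esx1 by 2.82 ± 0.18 (adjusted p = 3e-10). Oas1h, a gene of the interferon-induced oligoadenylate synthetase family that shares sequence with its relatives, had no count in any ESC or EpiLC library and 0.179, 0.726 and 0.718 CPM at day 2. Rhobtb1 fell by 2.64 on the log2 scale (SE 0.31, adjusted p = 8.36e-07) and Gtsf1 by 1.27 (SE 0.31, adjusted p = 0.00195). BC067074 fell by 1.22 (SE 0.16, adjusted p = 2.59e-06). Rhobtb1, Gtsf1 and BC067074 all rose again by day 4, by 2.44, 1.38 and 1.43. Only 42 of the 100 means rose at every step from EpiLC through days 2, 4 and 6.

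Between ESCs and EpiLCs 31 members rose and 6 fell (14.4% and 11.9% of all tested genes). With only these 2 groups filtered and fitted, 82 members were tested, of which 23 rose and 5 fell. Of the 16192 genes tested there, 2433 rose and 2132 fell. Meiosis-linked genes were among those that rose: Stra8 by 2.42 ± 0.31 (adjusted p = 2.86e-06), Sycp2 by 5.16 ± 0.68 (adjusted p = 3.56e-06) and Brdt by 2.18 ± 0.44 (adjusted p = 0.000355). Tex13b, a testis-expressed X-linked gene, had no count in ESCs and 0, 0.399 and 0.103 CPM in EpiLCs, and its call was lost without EpiLC replicate 2 (adjusted p = 0.0703). Bhmt, which remethylates homocysteine to methionine, fell by 5.36 (SE 0.33, adjusted p = 1.27e-10). Bhmt stood at 9.14, 7.09 and 10.7 CPM in ESCs, 0.108, 0.153 and 0.343 CPM in EpiLCs, 0.538, 0.865 and 0.373 CPM at day 2, 3.83, 5.34 and 4.09 CPM at day 4 and 32.1, 32.0 and 28.5 CPM at day 6. Bhmt thus averaged 8.99 CPM in ESCs, lay under 1 CPM in every EpiLC and day 2 library, and was above its ESC level in every day 6 library.

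Gata6 and Hand1, transcription factors best known from other lineages, ranked 2 and 4. Gata6, a regulator of primitive endoderm and heart, had 2.18, 1.77 and 1.55 CPM at day 4 and 15.5, 6.02 and 8.67 CPM at day 6, after at most 0.611 CPM in any earlier library. Its day 6 fold over day 4 was 5.50, and its score fell from 1.97 to 1.56 without D6PGCLC replicate 1. Hand1, a regulator of trophoblast giant cells and heart, had 3.02, 4.20 and 3.88 CPM at day 4 and 14.8, 16.8 and 10.8 CPM at day 6, and rose by 1.57 ± 0.29 from day 2 to day 4 (adjusted p = 0.00215) and by 1.77 ± 0.39 from ESCs to EpiLCs (adjusted p = 0.000938). Rbm24, a splicing regulator of muscle, had 6.15, 2.39 and 3.07 CPM at day 6 and at most 1.28 CPM before. Other markers of those lineages are given beside these values. The 20 other endoderm genes summed to 47.9 to 53.3 CPM at day 4 and 47.5 to 54.0 CPM at day 6. Their sum was 42.8 to 45.4 CPM in ESCs and 26.9 to 29.4 CPM in EpiLCs. Of their 16 tested genes 5 rose from day 4 to day 6, where 2.29% of all tested genes did, and their median log2 change was 0.861, against -0.0127 over all tested genes. Foxa1, Gata4, Hnf4a, Apob and Pdgfra rose, to day 6 means of 2.18, 2.11, 0.900, 1.95 and 1.93 CPM. Without D6PGCLC replicate 1, 4 of 16 rose (1.68% of all tested genes), the median was 0.617 and Hnf4a was no longer called (adjusted p = 0.393). Gata4 had averaged 4.37 CPM in ESCs and 0.979 CPM at day 4, and Pdgfra 1.42 and 0.636 CPM. Of the other defining endoderm markers, Sox17 averaged 1.08 CPM in ESCs, 0.709 CPM at day 4 and 1.39 CPM at day 6. Dab2 averaged 6.16 CPM at day 4 and 11.9 CPM at day 6 (0.86 on the log2 scale, adjusted p = 0.0319, under the 2-fold limit). Ttr had no count in any library, and in D6PGCLC replicates 2 and 3 Afp stood at 0.0702 and 0.0922 CPM and Foxa2 at 0.0234 and 0.0615 CPM. The 23 other mesoderm, muscle and fibroblast genes summed to 20.9 to 23.3 CPM at day 4 and 25.4 to 34.2 CPM at day 6. Their sum was 49.7 to 53.7 CPM in ESCs and 55.6 to 59.8 CPM in EpiLCs. From day 4 to day 6, 0 of their 18 tested genes rose and 0 fell, with a median log2 change of 0.169. Without D6PGCLC replicate 1, 0 of 19 rose and the median was 0.288. The 19 other trophoblast and surface epithelium genes summed to 236 to 262 CPM at day 4 and 238 to 266 CPM at day 6. Their sum was 110 to 124 CPM in ESCs and 306 to 341 CPM in EpiLCs. Over the same step, 0 of their 14 tested genes rose and 0 fell, with a median log2 change of 0.203. Without D6PGCLC replicate 1, 0 of 14 rose and the median was 0.198. The part of such cells in the Gata6, Hand1 and Rbm24 values was not tested.

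Matrix, adhesion and guidance genes formed a group of 20 with day 6 means of 2.70 to 77.3 CPM. Itga5, the fibronectin receptor subunit, had the highest of them per kilobase of exon (15.7 CPM per kilobase). Its CPM by library was 24.2, 21.1 and 20.8 CPM at day 2, 37.2, 39.3 and 37.9 CPM at day 4 and 89.5, 70.9 and 71.6 CPM at day 6. Col4a2, a basement membrane collagen chain, had 6.13, 5.94 and 5.34 CPM at day 4 and 19.8 and 17.4 CPM in replicates 2 and 3 at day 6 around a mean of 18.8 ± 1.26 CPM. Its head-to-head partner Col4a1, whose annotation overlaps it, was no member and went from a mean of 12.2 to 32.0 CPM, against 16.8 CPM in ESCs. Tgm2, a cross-linking enzyme, had 1.99, 3.21 and 2.48 CPM at day 4 and 11.6, 6.37 and 7.69 CPM at day 6. Angptl2, a secreted angiopoietin-like protein, had 4.61, 1.94 and 2.34 CPM at day 6 and at most 0.902 CPM before. Collagens Col13a1, Col20a1 and Col22a1, guidance genes Efnb3, Plxna2, Sema5a and Slit3, and the cadherins Dchs2 and Fat2 were the other familiar names.

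Enzymes, carriers and pumps gave 17 members. Atp1b2, a sodium pump subunit, stood at 5.98, 4.57 and 5.40 CPM at day 2, 24.0, 18.4 and 24.8 CPM at day 4 and 78.2, 38.5 and 55.7 CPM at day 6, and rose by 2.00 ± 0.20 from day 2 to day 4 (adjusted p = 7.47e-06). Ptges, which makes prostaglandin E2, rose by 2.19 ± 0.17 (adjusted p = 9.17e-07) and reached 24.9, 20.2 and 26.5 CPM at day 6. Fbp2, the muscle fructose-bisphosphatase, had 8.73, 8.40 and 9.90 CPM at day 6 against at most 3.26 CPM before. Cyp11a1, the enzyme that starts steroid synthesis, had 3.60, 1.69 and 2.46 CPM at day 6. Gonadal somatic cell genes, a list without members, summed to 6.30 to 7.24 CPM at day 4 and 9.41 to 11.3 CPM at day 6. Their sum was 18.9 to 22.8 CPM in ESCs and 26.1 to 33.2 CPM in EpiLCs. From day 4 to day 6, 1 of 8 tested genes rose and 1 fell (2.29% and 0.785% of all tested genes). Without D6PGCLC replicate 1, 1 of 9 rose and 0 fell (1.68% and 0.505%). The part of such cells in the Cyp11a1 value was not tested.

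Signalling, trafficking and cytoskeleton genes gave 18 members. Casp8, the initiator caspase of death receptors, had 1.21, 0.720 and 1.20 CPM at day 4 and 5.77, 3.21 and 5.10 CPM at day 6. App, the amyloid precursor protein, had 21.7, 18.6 and 24.8 CPM and then 61.4, 36.0 and 58.9 CPM. Sh2d4a had 2.55, 2.43 and 2.39 CPM and then 8.24, 7.47 and 9.22 CPM, and the vesicle GTPase gene Rab20 had 2.40, 3.36 and 2.07 CPM and then 9.86, 9.01 and 8.15 CPM. In each of these 4 genes the days did not overlap, which the choice of the genes favours. Lepr, the leptin receptor, reached 3.71, 3.09 and 3.72 CPM at day 6. Asb9, a substrate adaptor of ubiquitin ligases, had the largest ratio of the 100 genes (16.7) because it was nearly silent before: at most 0.144 CPM in any earlier library, and 1.71, 0.866 and 3.60 CPM at day 6.

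Germline genes outside the 100 were counted from the lists between days 4 and 6. Of the tested late PGC and germ cell identity genes that were not members, 2 of 43 rose (Piwil4 and Magea5) and 2 fell (Nanos3 and Dnd1). Counts of these lists leave out the members, which were chosen for their rise at day 6. Of all tested genes, members included, 2.29% rose and 0.785% fell, so nothing is read from a comparison with that share. Sycp3 was the only one of 34 tested meiosis genes outside the 100 to rise, from a mean of 5.83 to 13.8 CPM (1.14 ± 0.20, adjusted p = 0.00101). The 2 members of that list, Stra8 and Sycp2, were left out of this count. Nanos3 fell by 1.24 (SE 0.24, adjusted p = 0.00246) and Dnd1 by 1.26 (SE 0.13, adjusted p = 1.44e-05), both RNA-binding proteins of early germ cells. In the Rhox and X-linked germline families, Rhox6 and Rhox9 fell by 1.09 and 1.06, while Magea5 and Xlr rose, of 34 tested. Each of these calls, Sycp3, Piwil4, Magea5, Nanos3, Dnd1, Rhox6, Rhox9 and Xlr, was also made without D6PGCLC replicate 1, a fit added after the data were seen. The adjusted p values there were 0.00115 for Sycp3, 0.0252 for Piwil4, 0.0419 for Magea5, 0.0149 for Nanos3 and 0.000154 for Dnd1. Between days 2 and 4, 9 of 43 late PGC genes and 4 of 34 meiosis genes outside the 100 rose. So did 3 of 24 piRNA pathway genes and 7 of 34 genes of the Rhox and X-linked families. Over that step 2.56% of all tested genes, members included, rose.

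Positions were not used by the rule. The 100 genes lay on 20 chromosomes, and 12 were on the X (12.0%), against 3.87% of tested protein-coding genes. The X-linked members included Rhox2b, Rhox2c, Rhox13, Esx1, Scml2, Tex13b, Fthl17d and Asb9, and 1 member, Zfy2, is Y-linked. There were 7 pairs of members within 100 kb of each other, among them Itga5 and Gtsf1 (35.6 kb apart), Efnb3 and Atp1b2 (39.5 kb), Scml2 and Gm15262 (29.2 kb) and Col4a2 and Rab20 (4.23 kb). Median exon length was 4639 bases in the members and 4320 in tested protein-coding genes, and median GC content was 50.1% in both. Another annotated gene overlapped 56 of the 100, and for 7 the overlapping gene had more day 6 counts: Col4a2 (Col4a1), Tgm2 (Rprd1b), Angptl2 (Ralgps1), Caskin1 (Traf7), Vopp1 (Lancl2), Igsf10 (Med12l) and Myl3 (Pth1r). The strand setting of the counting is not stated, so reads of such pairs may have been mixed.

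Whether the rise holds in libraries that did not choose the genes was asked in 2 ways, both added after the data were seen. When 100 genes were chosen without D6PGCLC replicate 1, 2 or 3, the left-out library stood above all 12 earlier libraries for 99, 92 and 97 of them, where 20.6%, 14.3% and 17.9% of tested genes did so. The 12 earlier libraries served in both steps, which favours these counts, so nothing is read from them. When genes were chosen from the 5 libraries of 1 replicate number and tested in the 10 others, 24 of 96 rose from D4PGCLC to D6PGCLC for replicate 1, 41 of 100 for replicate 2 and 33 of 100 for replicate 3. The matching shares of all tested genes were 0.982%, 1.43% and 0.841%. Against D2PGCLC, 78, 92 and 84 of them rose (8.68%, 8.78% and 7.39% of all tested genes). These chosen sets shared 59, 61 and 67 genes with the 100. The replicates may be technical, so this split does not stand for new cultures.

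**Figure D4:**
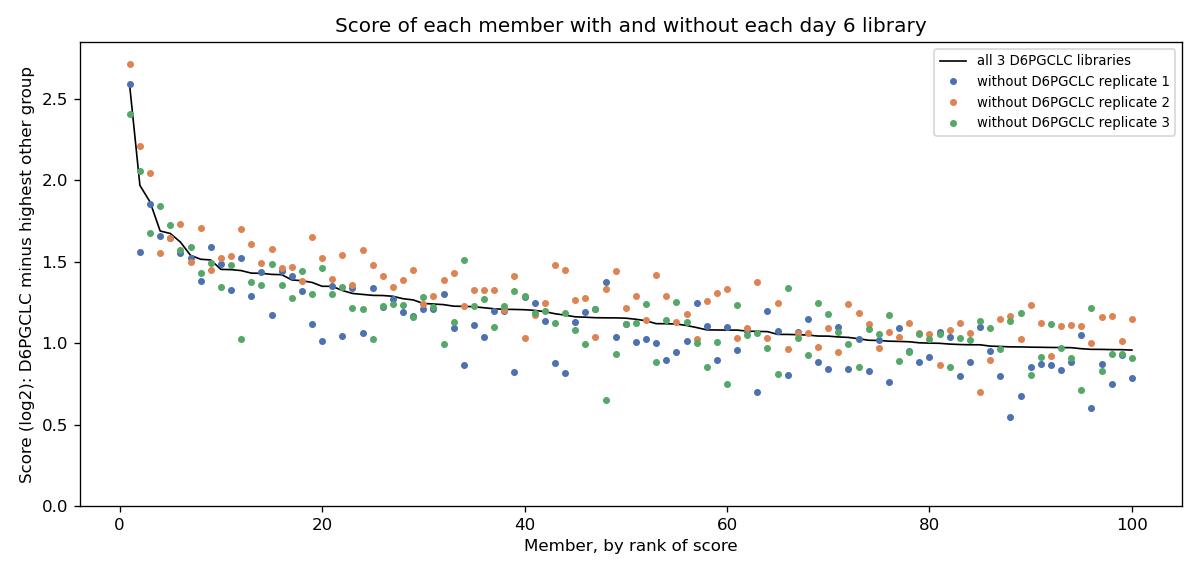
Score of each member (y axis, log2; x axis, rank) with all 3 D6PGCLC libraries (line) and with 1 of them left out (points). All 100 scores stayed above 0 in each case, the lowest being 0.55 without replicate 1.

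Without D6PGCLC replicate 1 the scores ran from 0.55 to 2.59 with a median of 1.07. Without replicate 2 the median was 1.24 and without replicate 3 it was 1.13. Of the 100 genes, 80 were chosen again without D6PGCLC replicate 1. Just inside the limit lay 9330182L06Rik, Myo5b and Rhox2c, each with a score of 0.96, and just outside lay Klhl32 (0.96), Sez6 (0.96) and Cpeb2 (0.95). The gap at the limit is far smaller than the spread between libraries: Klhl32 averaged 2.85 ± 2.37 CPM at day 6.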

How the data were processed

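The count table held raw read counts of 55536 genes in 15 libraries. Per the labels and the study's methods, the authors trimmed reads (Trim Galore, FastQC), aligned them to mm10 with STAR and deposited unnormalized counts. The counting program, its strand setting and its handling of multi-mapping reads are not given in the sources used here. All gene IDs matched GENCODE M21. CPM was the count divided by the library total. The 100 members followed the rule given above. The members and the 24 gene lists were chosen with earlier results of these data known, as were the roles.

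Groups were compared with edgeR 4.0.16 (R 4.3.3): TMM, filterByExpr, a quasi-likelihood fit to all 15 libraries with a term for each group, p-values being adjusted by Benjamini-Hochberg across 18090 genes. A call needed an adjusted p below 0.05 and a log2 fold change beyond 1. DESeq2 1.42.0 was an alternative. Errors of fold changes are SE and those of CPM are SD. The code was tested on simulated data. A fold against a group without counts was not given. Promoter windows came from RefSeq and matched 70 of the 100 members, under 80%, so a check of promoters over the whole set is void.

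Named genes were the 20 highest scores, the 10 highest day 6 levels, members in a list, the 5 largest rises from day 2 to day 4, 3 genes either side of the limit, and members whose day 6 libraries overlapped others. Further members and the genes outside the 100 were named after their values were seen. D6PGCLC differs from D4PGCLC by the rule, so only genes outside the 100 are called in that contrast. No value in any group of 3 libraries could be tested as an outlier.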

Additional observations from a re-analysis of the deposited data

How the results depend on the processing

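Choosing the members again shared 80 to 99 of the 100 when 1 library was left out (80 without D6PGCLC replicate 1). The shared number was 97 with TMM library sizes, 80 with 0.5 added to CPM, 80 with medians, 65 with 4 added to CPM, 50 when 50 genes were kept and 100 when 200 were kept. Leaving out 1 library gave 31 to 42 members higher and 0 to 0 lower in D4PGCLC against D2PGCLC, 11 to 15 higher and 14 to 21 lower in D2PGCLC against EpiLC, and 27 to 32 higher and 5 to 9 lower in EpiLC against ESC. Without the fold limit, 22 members were higher in D2PGCLC against EpiLC and 13 lower in EpiLC against ESC, since smaller changes then count. Fitting only the D4PGCLC and D2PGCLC libraries called 30 of 97, and leaving out the D6PGCLC libraries 36 of 98. Fitting only the D2PGCLC and EpiLC libraries tested 87 members and called 9 higher and 15 lower.

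Angptl2 and 4933402E13Rik changed direction between days 2 and 4. Angptl2, at 0.01 in the report, gave -0.00721 with the 2 groups alone, -0.00315 with DESeq2 size factors, -0.0116 with the replicate block and -0.0056 with DESeq2, and -0.51 to 0.35 with 1 library left out, being below 0 without D2PGCLC replicate 3 (-0.39) or D4PGCLC replicate 1 (-0.51). 4933402E13Rik, at -0.09, gave -0.40 to 0.22 with 1 library left out, being above 0 without D2PGCLC replicate 3 (0.05) or D4PGCLC replicate 2 (0.22). The cause was not tested. Of the other fold changes of named members, 841 kept direction and call, 18 gained a call and 5 lost one, and of their scores 216 stayed within the day 6 SD and 36 did not.

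Replicate numbers share no stated source. Deviations of same-numbered libraries correlated at -0.03 to 0.21 over 30 pairs, with a mean of 0.0358. The 60 other pairs ran from -0.204 to 0.0714, with a mean of -0.0179. On each PGCLC day, replicate 2 was also the highest library in hypoxia and glycolysis genes and the lowest in ATF4 and unfolded protein response genes. Same-numbered libraries were not treated as pairs in the main fit, and a shared source by replicate number was not tested. With the replicate block, 42 members were higher in D4PGCLC against D2PGCLC. Levels of a few counts, as in Art3 before day 4, limit what can be said of the scarcest members.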

Other observations

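The list of 2-cell stage genes holds no member, and 8 of its 18 tested genes rose from day 4 to day 6 (2.29% of all tested genes rose). They were Zscan4a, Zscan4c, Zscan4d, Zscan4e, Zscan4f, Usp17la, Usp17le and Gm5662, genes of a rare embryonic stem cell state that resembles the 2-cell embryo. The 24 genes of the list summed to 3.05 to 4.01 CPM at day 2, 4.85 to 10.6 CPM at day 4 and 15.6 to 28.5 CPM at day 6, against 43.6 to 64.8 CPM in EpiLCs and 26.5 to 29.8 CPM in ESCs. On each PGCLC day replicate 2 held the highest of these sums. At day 6 it stood at 28.5 CPM, against 16.1 and 15.6 CPM in replicates 1 and 3. Zscan4f averaged 0.0890 CPM at day 4 and 1.57 CPM at day 6 (3.97 ± 0.56 on the log2 scale, adjusted p = 0.000175). Without D6PGCLC replicate 1, a fit added after the data were seen, these 8 genes were called again, 9 of 18 in all (1.68% of all tested genes), and Zscan4f rose by 3.93 ± 0.58 (adjusted p = 0.00059). The Zscan4 genes are near-identical copies, so values of single copies are uncertain.

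Hox genes, another list without members, summed to at most 8.14 CPM at day 4 and at most 16.2 CPM at day 6, against 22.7 to 26.1 CPM in ESCs. From day 4 to day 6, 2 of 12 tested genes rose (Hoxb4 and Hoxd13), where 2.29% of all tested genes did. Without D6PGCLC replicate 1 the call of Hoxb4 was lost (adjusted p = 0.0846), Hoxd13 stayed higher and Hoxd8 gained a call (adjusted p = 0.0423). That fit thus called 2 of 13 tested Hox genes higher, against 1.68% of all tested genes. Tbx3, a regulator of naive pluripotency chosen after its values were seen, averaged 156 CPM in ESCs, 6.54 CPM in EpiLCs, 16.96 CPM at day 2, 38.3 CPM at day 4 and 81.1 CPM at day 6. Its day 6 libraries stood at 83.6, 69.8 and 89.7 CPM, below all 3 ESC libraries, which keeps it out of the 100 genes.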
